A study of Mus musculus with 16 samples.

Results

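The chemokines and leukocyte adhesion molecules described here are 10 genes that decide where leukocytes stop and enter a tissue, read in single cells of diabetic and control mouse kidneys. The members were chosen by symbol from the 31053 genes of the count matrices: the chemokines Cxcl16, Cx3cl1, Ccl2, Cxcl1, Cxcl10 and Cxcl12, and the adhesion molecules Icam1, Icam2, Vcam1 and Sele. Their unique molecular identifier (UMI) counts were summed per library and cell class, and levels are in CPM, the UMIs of a gene scaled to a fixed total of UMIs of that class in that library. All 10 were detected. Cxcl16 in glomerular endothelial cells at 6 weeks was already known to differ when the members were chosen, so its values in that contrast are a description.

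The study compared BTBR ob/ob mice (DN mice), which lack functional leptin and become obese and diabetic, with BTBR +/+ mice (control mice), each aged 6 or 12 weeks. Each of the 16 libraries came from both kidneys of 1 mouse, with 2 females and 2 males per genotype and age, so that 4 libraries stood in each genotype at each age. By the study's methods, mice of both genotypes also carried the mTmG reporter and a Cre transgene driven by a podocyte promoter, so a reporter recombined in podocytes was shared by DN and control mice. The tissue was freed of much of its proximal tubule on a Percoll gradient and digested with a cold-active protease. The model rests on 1 inbred strain and on loss of leptin, which acts in leukocytes as well as in metabolism.

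Chemokines are small secreted proteins that attract leukocytes through G protein-coupled receptors. Cxcl16 and Cx3cl1 are made with a transmembrane stalk, so that they act on the cell surface until proteases such as Adam10 and Adam17 release them. Icam1 and Icam2 are bound by beta-2 integrins of leukocytes, Vcam1 by an integrin with the alpha-4 chain, and E-selectin, the product of Sele, slows leukocytes that roll along endothelium. Several of these genes, among them Ccl2, Cxcl1, Cxcl10, Icam1, Vcam1 and Sele, are classical targets of NF-kB, and Cxcl10 is named for its induction by interferon.

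The labels called the material glomeruli, but most cells were tubular. Of 68660 kept cells in 17 classes named from marker genes, 17346 were proximal tubule-like (PT), 8300 principal cell-like (PC), 6148 glomerular endothelial-like (gEC), 4091 mesangial-like (Mesan) and 1174 podocyte-like (Podo). Other endothelial classes were arterial (aEC, 562 cells), Plvap-marked venous and peritubular (pvEC, 621 cells) and a cluster led by Slc14a1 that was kept apart (Slc14a1-EC, 1817 cells). The remaining classes were descending and ascending limb (dLOH, aLOH), distal convoluted tubule (DCT), connecting tubule (CNT), A-type and B-type intercalated cells (IC-A, IC-B), smooth muscle and renin cells (SMC-renin), immune cells (Imm) and mitotic cells. Of the fixed markers, 9 of 10 for gEC, 8 of 8 for Mesan and 9 of 10 for Imm were highest in their own class, against 4 of 6 for pvEC. Cell barcodes shared between libraries split them into a kit batch of 12 libraries with 83410397 to 125551519 UMIs and one of 4 libraries with 10510855 to 21728793 UMIs. The smaller batch was replicate 1 of each female group, so it held both genotypes at both ages. The methods name more than one kit version, and the labels do not say which library used which, so this split is read from the barcodes.

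In DN mice Cxcl16 was higher in CNT, Cx3cl1 was higher in Mesan, and Icam2 was lower in Mesan. Cxcl16 in gEC is left out of the counts that follow, because its 6-week values were known at the choice of members and the average over both ages contains them. The members and the gene lists read further below were all chosen with earlier results of these data known. Their shares of calls beside those of all pairs are therefore a description. Averaged over both ages, 3 of the other 64 pairs of a member and a class passed the test, 2 higher and 1 lower, where 1.02% of all gene and class pairs did so. At 12 weeks 2 of 64 pairs passed, against 0.426% of all pairs. At 6 weeks 0 of 67 pairs passed by edgeR, where 0.0696% of all pairs passed, with 8 pairs at an unadjusted p under 0.05 and 1 called by DESeq2. With Cxcl16 in gEC included the counts were 4 of 65, 2 of 65 and 1 of 68, and the 6-week call was that pair alone, so nothing is read from it. The test was edgeR's quasi-likelihood test on the summed counts, fitted over all genes of a class with sex as a covariate, and p-values were adjusted by Benjamini-Hochberg. The median log2 fold change over the 64 pairs was 0.04 on average over both ages, and -0.0015 over all genes and classes. Libraries with the same replicate number in both genotypes deviated together, so a fit with the replicate number as a block was also made. With that block 19 of 72 pairs passed on average over both ages, 13 higher and 6 lower, where 5.53% of all pairs passed, and the 3 pairs called without the block were among them. With Cxcl16 in gEC it was 20 of 73. Of the 72 pairs 8 had not passed the low-count filter of the fit without the block, and 1 of those was among the 19. At the single ages 5 of 76 pairs passed with the block at 6 weeks, all higher. At 12 weeks 12 of 72 did so, 7 higher and 5 lower. The shares of all pairs with the block at each age are not given, so these counts are not weighed. Several classes hold more than one cluster, so the fits were repeated on the largest cluster of each class alone, an alternative chosen after the data were seen. The same 3 pairs were called in 54 tested without the block, and 15 of 66 pairs with it. The shares of all pairs that passed in these fits are not given, so the counts are not weighed. Of the 19 calls with the block, those of Cxcl16 in IC-B and PT and of Icam1 in PT were lost in the largest clusters. Cxcl12 in dLOH did not pass the low-count filter there.

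**Figure D1:**
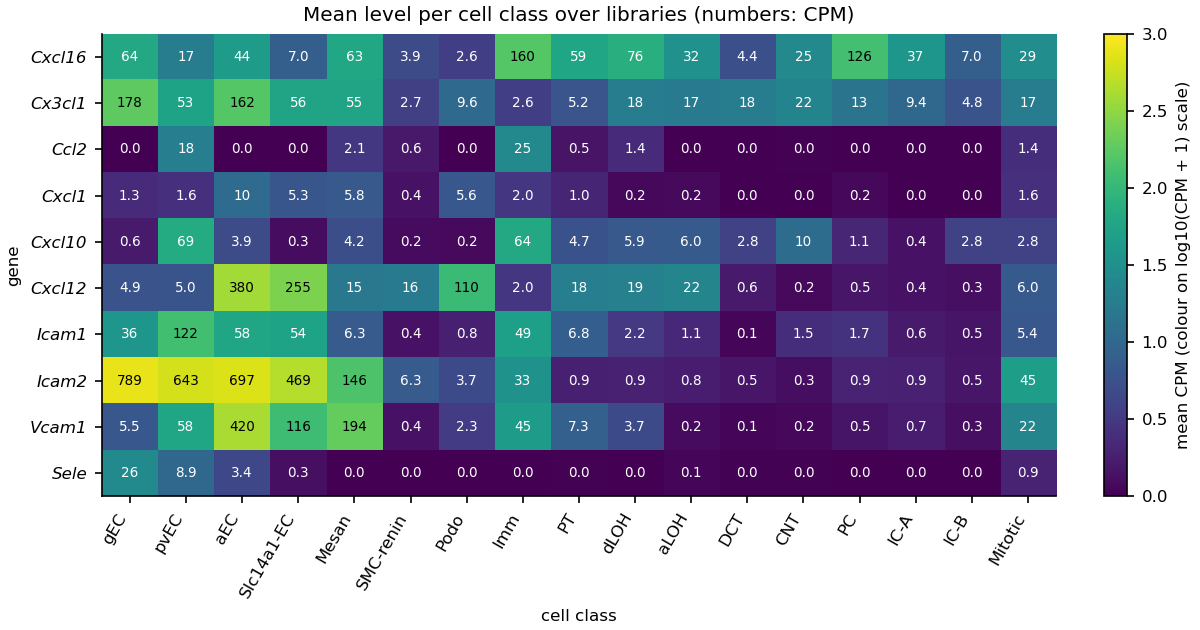
Mean level of each gene (rows) in each of the 17 cell classes (columns) over the libraries with at least 10 cells of the class, in CPM with the colour on a log10(CPM + 1) scale. Icam2 was highest in the endothelial classes, Cxcl16 was spread over immune, tubular, endothelial and mesangial cells, and Sele was highest in gEC.

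**Figure D2:**
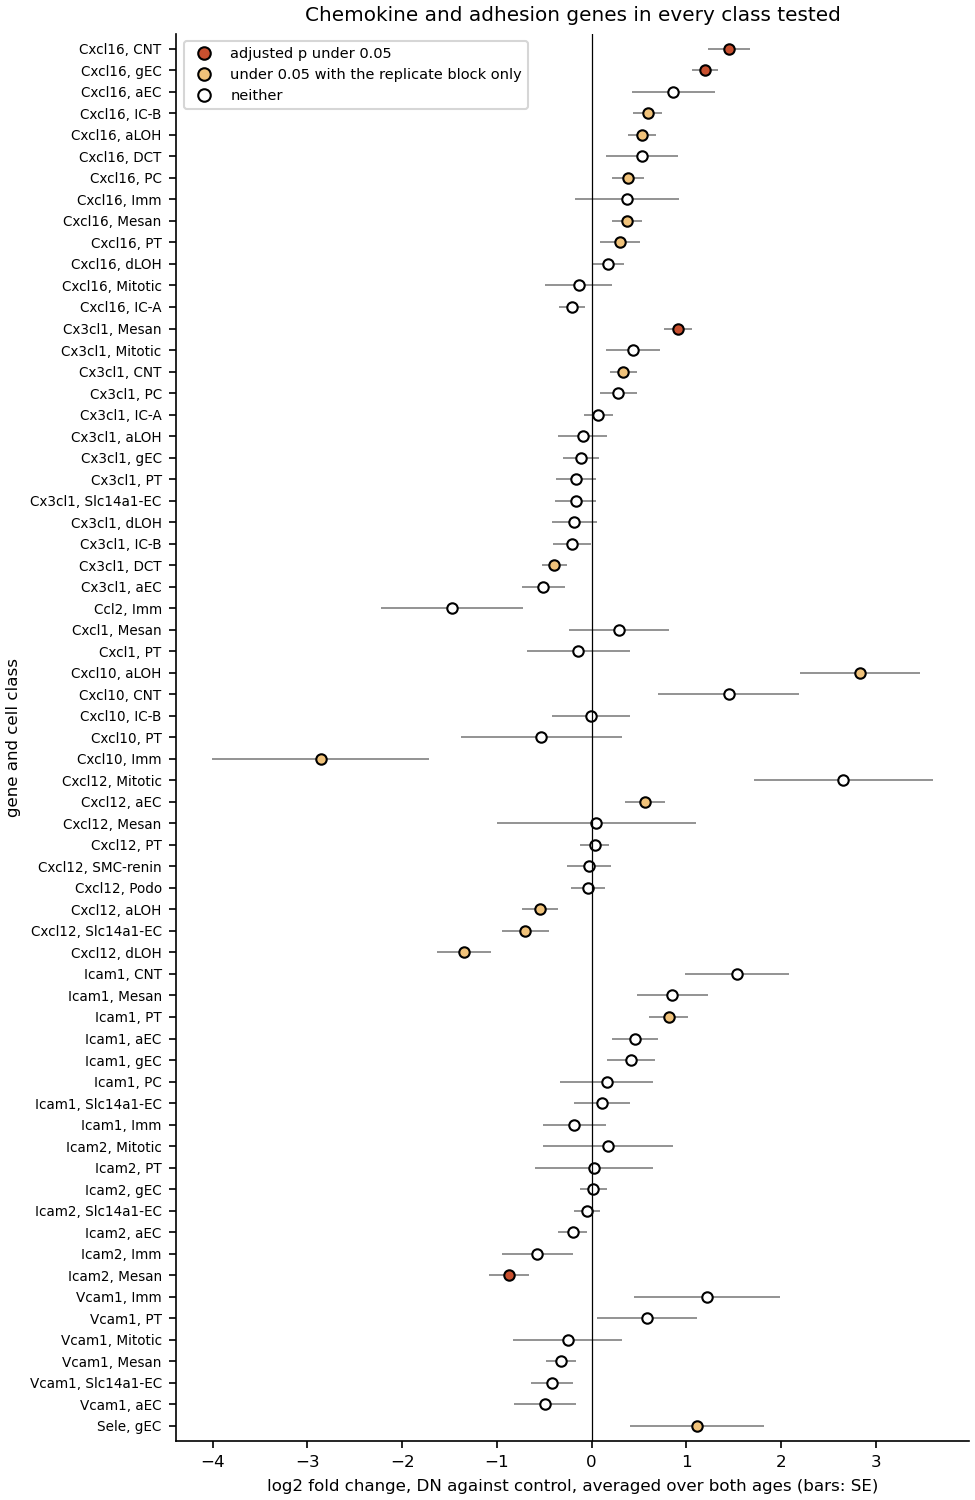
Log2 fold change of DN against control averaged over both ages, for each tested pair of a gene and a class. Bars are standard errors calculated back from the F statistic of the edgeR test. Red points are the 4 pairs with an adjusted p under 0.05 (Cxcl16 in gEC and CNT, Cx3cl1 and Icam2 in Mesan, the last below 0), of which Cxcl16 in gEC is a description because its 6-week values were known. Yellow points are pairs under 0.05 in the fit with the replicate block and not in the fit shown.

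Cxcl16 (ENSMUSG00000018920, GRCm38 chr11:70453983-70459984, minus strand) encodes the transmembrane ligand of Cxcr6, a receptor of T cells and natural killer T cells, and also binds oxidised lipoproteins. It was the most widespread member, with 34688 UMIs in 26.0% of all kept cells. Its mean level was 160 ± 105 CPM (SD, n = 16 libraries) in Imm, 126 ± 36.3 in PC, 76.1 ± 15.6 in dLOH, 64.3 ± 28.0 in gEC, 62.6 ± 18.8 in Mesan and 58.8 ± 16.8 in PT. Imm and PC did not differ beyond the spread of Imm, and the levels of gEC, Mesan and PT were closer together than the SD of any of them. Here and below such comparisons set class means beside the SD over libraries. The classes share libraries, so this SD does not measure the error of a difference between classes. These comparisons therefore do not show that classes are equal. PT and PC held 36.8% and 27.6% of all Cxcl16 UMIs, while Imm held 1.47%. It was lower in aEC (44.3 CPM), IC-A (36.9), aLOH (31.7), Mitotic (28.8), CNT (24.5) and pvEC (17.1). Within Imm the macrophage-like cells carried most of it, at 537 CPM (95% Poisson interval 485 to 592, 149 cells), while an immune cluster led by Chil3, Fn1 and Vcan was at 11.8 CPM (6.1 to 20.6, 214 cells). All intervals of this kind cover counting error only.

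In gEC at 6 weeks Cxcl16 stood at 81.6, 72.0, 90.7 and 79.1 CPM in the DN libraries (female replicates 1 and 2, then male replicates 1 and 2, the order of all values per library that follow) and at 35.0, 24.5, 36.8 and 32.4 CPM in the control libraries. At 12 weeks the DN libraries were at 90.9, 94.6, 108 and 98.1 CPM and the control libraries at 35.3, 59.4, 49.2 and 41.7 CPM. The genotypes did not overlap at 12 weeks, and the DN library was higher in 4 of 4 pairs of the same sex and replicate number, including the pair of the small kit batch. The log2 fold change was 1.29 ± 0.19 (SE) at 6 weeks, the contrast known when the members were chosen, in which 1 of 9570 genes in gEC passed (0.0104%) and from which nothing is read. It was 1.11 ± 0.20 at 12 weeks (adjusted p = 0.0586, and 3.66e-05 with the block, where 3.02% of genes passed). Averaged over both ages, and so with the 6-week libraries in it, it was 1.20 ± 0.14, given as a description without a test. The call at 6 weeks was lost in 12 of 16 fits that left out 1 library each (the largest adjusted p, 0.303, came on omitting male replicate 2 of the 6-week controls), with a log2 fold change between 1.18 and 1.41 in all 16 fits. Macrophage markers in gEC summed to 0 to 3.92 CPM in control and 0 to 3.01 CPM in DN libraries. The 10 markers of the Imm list summed to 1104 to 1494 CPM in control and 1151 to 2043 CPM in DN libraries. Srgn, 1 of these 10, was itself highest in gEC, at a mean of 1428 CPM against 643 CPM in Imm, so the sum was mostly Srgn. The part of these markers in the result was not tested.

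The connecting tubule was the class with a call for Cxcl16 outside gEC. Its cells set the last adjustments of calcium and sodium transport before the collecting duct. At 6 weeks CNT had 77.0, 27.8, 31.5 and 44.0 CPM in DN and 14.3, 33.3, 8.01 and 9.44 CPM in control libraries, so 1 control library, female replicate 2, stood among the DN values. At 12 weeks the values were 36.5, 34.4, 22.3 and 20.8 CPM in DN and 6.92, 8.55, 10.4 and 7.61 CPM in control libraries, with no overlap. DN exceeded control by a log2 fold change of 1.59 ± 0.31 at 12 weeks (adjusted p = 0.0175, where 0.806% of genes in CNT passed) and 1.45 ± 0.22 averaged over both ages (adjusted p = 0.00159, 1.41% of genes). At 6 weeks it was 1.31 ± 0.32 and did not pass (adjusted p = 0.343), but it passed without DN female 6 weeks replicate 2 (adjusted p = 0.00668) or control female 6 weeks replicate 2 (adjusted p = 0.0142). The control cells of CNT included 193 of a cluster found in control male 6 weeks replicate 2 alone, with no DN cell in it. Without that cluster the log2 fold change was 1.60 at 12 weeks (adjusted p = 0.0154), 1.04 at 6 weeks (adjusted p = 0.96) and 1.32 averaged over both ages (adjusted p = 0.00594). The 12-week call was lost when cells with over 20% mitochondrial counts were left out (1.15, adjusted p = 0.212). Without control female 12 weeks replicate 2, control male 12 weeks replicate 2 or DN female 12 weeks replicate 2 its adjusted p was 0.108, 0.0943 and 0.0704. The 10 tubule injury genes in CNT summed to 4075 to 7107 CPM in control and 6106 to 9815 CPM in DN libraries, and the 20 NF-kB response genes to 493 to 860 and 524 to 1352 CPM, whose part in the result was not tested. The Imm markers in CNT were at 1.79 to 14.2 CPM in control and 0 to 10.3 CPM in DN libraries.

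In the other 11 classes tested Cxcl16 did not pass without the block. With the block it also passed, averaged over both ages, in IC-B, Mesan, PC, PT and aLOH, all higher in DN, where 3.52%, 13.6%, 9.95%, 8.72% and 6.07% of genes in those classes passed. The blocked log2 fold changes were smaller there, from 0.28 in PT (adjusted p = 0.0254) to 0.56 in IC-B (adjusted p = 0.0297). In PT the DN library was the higher one in 8 of 8 pairs, at 45.6 to 97.2 CPM against 37.5 to 66.8 CPM in control libraries. The shares of all genes with such counts of pairs are not given for any class, so these counts are not weighed. In IC-A at 12 weeks the blocked log2 fold change was -0.40 (adjusted p = 0.031, 7.61% of genes). That class joined 2 clusters with unequal Cxcl16, one at 24.6 CPM with 1927 control and 1867 DN cells and one at 82.1 CPM with 584 control and 237 DN cells. In the larger cluster alone the blocked value was -0.17 (adjusted p = 0.697). The blocked call in IC-B was also lost in its largest cluster (0.53, adjusted p = 0.103), as was that in PT (0.26, adjusted p = 0.367). In Imm the values were 142.6 ± 123 CPM in control and 177.5 ± 87.7 CPM in DN libraries (n = 8 each) and overlapped widely (log2 fold change 0.37 ± 0.55, adjusted p = 0.991). The macrophage-like cells alone were at 537 CPM in both genotypes, with intervals of 445 to 642 in control and 475 to 604 in DN mice.

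**Figure D3:**
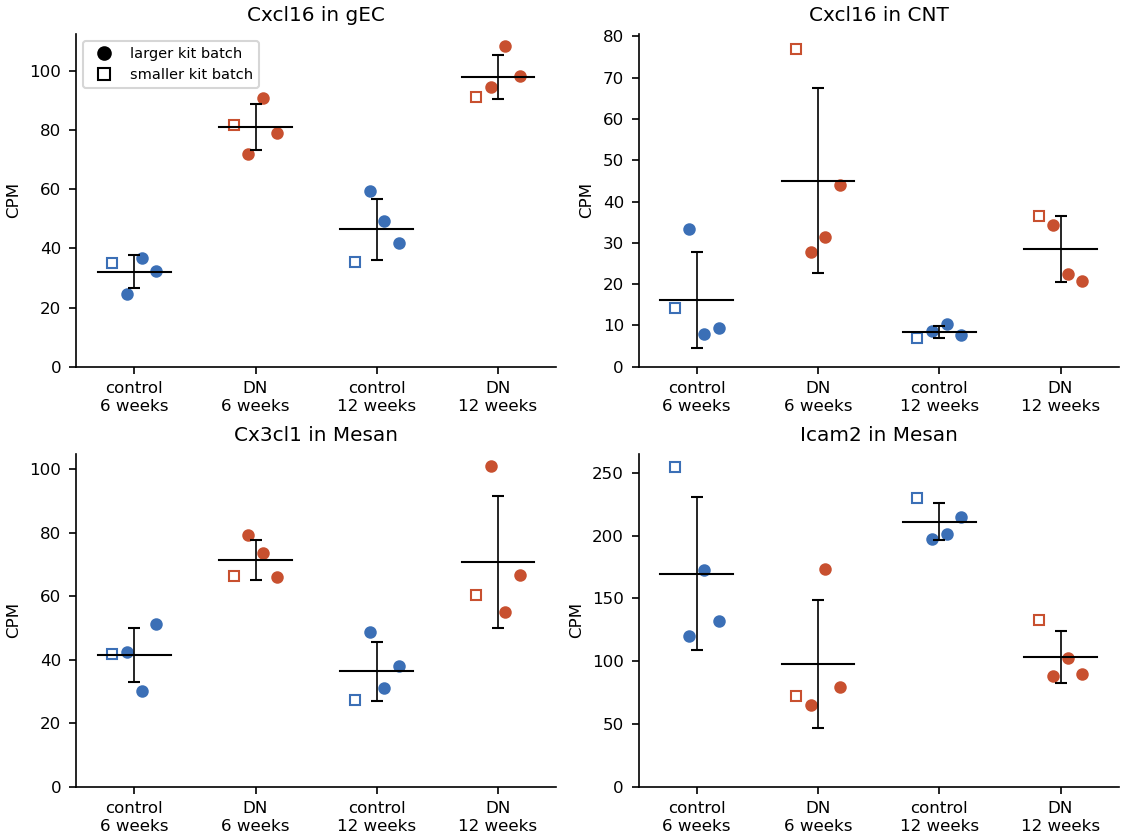
Level in every library, in CPM, of Cxcl16 in gEC and CNT and of Cx3cl1 and Icam2 in Mesan, by genotype and age. Filled circles are libraries of the larger kit batch, open squares those of the smaller one, and bars the mean ± SD of 4 libraries, and Cx3cl1 in Mesan shows no overlap of genotypes at either age, nor does Cxcl16 in gEC, whose 6-week values were known when the members were chosen.

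Cx3cl1 (ENSMUSG00000031778, chr8:94772009-94782427, plus strand), or fractalkine, is the ligand of Cx3cr1 on monocytes, macrophages and natural killer cells. It was highest in gEC at 178 ± 50.03 CPM and in aEC at 162 ± 53.2 CPM, a difference smaller than either SD. Slc14a1-EC, Mesan and pvEC followed at 56.1 ± 18.9, 55.0 ± 20.2 and 53.3 ± 28.7 CPM, also within their spread. In gEC the 6-week values were 104, 176, 189 and 145 CPM in DN and 106, 258, 141 and 198 CPM in control libraries, and the 12-week values 132, 192, 189 and 251 CPM in DN and 143, 262, 157 and 209 CPM in control libraries. The genotypes overlapped at both ages (log2 fold change -0.11 ± 0.19 averaged over both ages, not called). The library of the small kit batch was the lowest of each of the 4 groups in gEC.

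In Mesan, the contractile cells between glomerular capillaries, Cx3cl1 was higher in DN. At 6 weeks it stood at 66.5, 79.3, 73.7 and 66.02 CPM in DN and 42.0, 42.4, 30.3 and 51.3 CPM in control libraries. At 12 weeks it stood at 60.4, 101, 55.2 and 66.8 CPM in DN and 27.5, 48.7, 31.1 and 38.1 CPM in control libraries. The lowest DN value was above the highest control value over all 16 libraries. Its log2 fold change was 0.96 ± 0.20 at 12 weeks (adjusted p = 0.0102, where 2.79% of genes in Mesan passed) and 0.91 ± 0.14 averaged over both ages (adjusted p = 0.000938, 4.51% of genes). At 6 weeks it was 0.86 ± 0.21 (adjusted p = 0.124, and 0.00416 with the block, where 3.51% of genes passed). Without control male 12 weeks replicate 1 or DN female 12 weeks replicate 2 the 12-week call was lost (adjusted p = 0.0621 and 0.0669). Because Cx3cl1 is high in endothelium, endothelial markers in Mesan were read as well. The marker lists did not move together. The 10 gEC markers summed to 1306 to 1513 CPM in control and 1134 to 1490 CPM in DN libraries and the 6 pvEC markers to 5289 to 15351 and 4523 to 9846 CPM. Of the pvEC markers Igfbp5 and Nr2f2 were themselves highest in Mesan, at means of 6542 and 605 CPM, so that sum does not measure endothelial RNA. The 10 pan-endothelial markers summed to 394 to 673 CPM in control and 505 to 720 CPM in DN libraries and the 8 aEC markers to 502 to 1097 and 630 to 1048 CPM, and Emcn, a pan-endothelial gene, was called higher in DN (0.74 ± 0.18). All of these ranges overlapped, and 0.447% to 12.5% of mesangial-like cells per library had a UMI of Pecam1 or Cdh5. With those cells left out, an alternative chosen after the data were seen, the log2 fold change averaged over both ages was 0.92 (adjusted p = 0.00267). Of the 20 dissociation stress genes 19 were tested in Mesan and 4 were higher in DN on average over both ages, Egr1, Fos and Junb among them. The summed level of the whole list overlapped, at 2533 to 5744 CPM in control and 2655 to 4864 CPM in DN libraries, and its part in the result was not tested.

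With the block Cx3cl1 also passed in CNT (log2 fold change 0.35, adjusted p = 0.0362, where 6.92% of genes passed) and, on the lower side, in DCT (-0.41, adjusted p = 0.0413, 2.73% of genes). Its levels there were 19.3 ± 5.14 CPM in control and 24.1 ± 5.87 CPM in DN for CNT, and 20.2 ± 5.22 and 15.2 ± 3.37 CPM for DCT, so the genotypes overlapped in both. Cx3cl1 stood at 13.4 to 17.6 CPM in PC, aLOH, Mitotic and dLOH, without a call. In Imm only 10 UMIs of Cx3cl1 were counted in 777 cells.

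Ccl2 (ENSMUSG00000035385, chr11:82035571-82037453, plus strand) attracts monocytes through Ccr2. It was the rarest member, with 335 UMIs in 85 cells, and 11 cells with at least 10 UMIs each held 60.9% of them. Its mean was 24.6 ± 29.2 CPM in Imm, where macrophage-like cells were at 70.3 CPM (52.5 to 92.2). The Imm values at 6 weeks were 14.4, 4.33, 6.37 and 5.52 CPM in DN and 108, 4.90, 54.2 and 0 CPM in control libraries, and at 12 weeks 14.8, 15.4, 40.2 and 0 CPM and 50.8, 11.9, 52.4 and 10.4 CPM. They rested on 81 UMIs in all and overlapped (log2 fold change -1.47 ± 0.75, adjusted p = 0.857). The mean of pvEC came from 1 cell with 33 UMIs.

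In Mesan no Ccl2 UMI was counted in any of the 8 control libraries, among 1603 cells and 7288129 UMIs, which allows up to 0.412 CPM at a floor of 3 counts over the group. The DN libraries held 59 UMIs in 24 cells of 2488. At 6 weeks they stood at 0, 5.77, 0.469 and 6.43 CPM, and at 12 weeks at 9.66, 1.96, 4.23 and 4.40 CPM. Over the group the DN level was 3.82 CPM (95% Poisson interval 2.91 to 4.93), at least 9.29-fold higher than the control floor when the DN level is taken at its point value, and 7 of 8 DN libraries had a UMI. Ccl2 did not pass the filter on low counts in Mesan, and the pair was singled out after its values were seen, so it is a description. It is among the pairs that the fit without that filter called at 12 weeks and averaged over both ages, and nothing is read from that.

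Cxcl1 (ENSMUSG00000029380, chr5:90891241-90893115, plus strand), a ligand of Cxcr2 that attracts neutrophils, was also rare, with 644 UMIs in 481 cells. The highest means were 10.3 ± 12.4 CPM in aEC, 5.80 ± 4.85 in Mesan and 5.61 ± 9.10 in Podo, which did not differ beyond their spread. In aEC the 6-week values were 0, 10.8, 16.7 and 6.23 CPM in DN and 40.1, 32.8, 6.90 and 3.42 CPM in control libraries, on 1 to 16 UMIs each where any were counted. At 12 weeks the libraries with at least 10 aEC cells were at 0, 0 and 13.0 CPM in DN and 0, 3.64 and 10.3 CPM in control mice. In Podo Cxcl1 did not pass the low-count filter of the fit without the block and is described only. The DN libraries held 35 UMIs and the control libraries 9, and 19 of the 35 came from DN female 6 weeks replicate 2. It is the 1 pair among the 19 blocked calls averaged over both ages that had no test in the filtered fit of all libraries without the block. The edgeR fit without the low-count filter called it (log2 fold change 2.85, adjusted p = 0.000491). So did the filtered edgeR fit without DN male 12 weeks replicate 2 (3.16, adjusted p = 0.0386). Mesan and PT showed no call (log2 fold changes 0.29 ± 0.52 and -0.14 ± 0.54).

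Cxcl10 (ENSMUSG00000034855, chr5:92346638-92348889, minus strand) attracts activated T cells through Cxcr3. Its 3818 UMIs sat in 495 cells, 0.721% of all kept cells, and the 100 cells with the most held 81.1% of them. A mean over libraries therefore depended on single cells. The highest mean, 69.1 CPM in pvEC, came from 1 cell with 122 UMIs in control male 6 weeks replicate 2, and 9 of the 13 libraries with enough pvEC cells were at 0. In Imm the values were 0, 0, 15.9 and 0 CPM in DN and 0, 0, 91.7 and 0 CPM in control libraries at 6 weeks, and 0, 0, 82.1 and 5.15 CPM against 25.4, 301, 510 and 0 CPM at 12 weeks. In CNT, the other class above 10 CPM, single DN and control libraries at 6 weeks reached 81.1 and 32.2 CPM, and the log2 fold change of 1.45 ± 0.75 did not pass (adjusted p = 0.565).

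In aLOH, the salt-reabsorbing limb that makes uromodulin, Cxcl10 at 6 weeks stood at 0, 30.3, 3.98 and 0 CPM in DN and 2.87, 1.75, 0.709 and 0 CPM in control libraries. At 12 weeks it stood at 0, 12.6, 16.9 and 19.2 CPM in DN and 1.78, 2.67, 0 and 3.66 CPM in control libraries. The log2 fold change was 2.83 ± 0.63 averaged over both ages (adjusted p = 0.0698, and 0.000281 with the block, where 6.07% of genes in aLOH passed). Both libraries of the small kit batch in DN were at 0. Of 4174 aLOH cells 51 held all 342 UMIs. The richest 10 cells held 78.1% of them, and 1 cell held 129. With the block Cxcl10 was lower in Imm (-2.90, adjusted p = 0.0489, 0.496% of genes), where 19 cells held all 341 UMIs and 1 of them held 159. In DCT Cxcl10 did not pass the low-count filter without the block when all libraries were used. The edgeR fit without that filter called it higher in DN at 6 weeks (log2 fold change 5.46, adjusted p = 8.29e-13). With the block the DN effect there was called as different between the ages, where 0.0583% of all pairs passed. Of its 241 UMIs in DCT 194 came from DN female 6 weeks replicate 2 and 118 from 1 cell, so nothing is read from either call. The aLOH and Imm calls had opposite directions.

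The cells with Cxcl10 were few but rich. The 77 kept cells with at least 10 UMIs held 76.3% of all Cxcl10 UMIs, and they came from 13 libraries and 13 classes, 43 of them from DN and 34 from control mice. Most were tubular, with 31 PT and 16 CNT cells. In the 66 tubule cells among them all 20 genes of the interferon list were higher than in 17982 cells without a Cxcl10 UMI weighted to the same classes and libraries, and the list summed to 3764 CPM against 184 CPM. Ifit1, Iigp1 and Rsad2, interferon-induced antiviral genes, stood at 413, 549 and 198 CPM against 1.88, 4.52 and 0.502 CPM. The NF-kB list was higher for 18 of 20 genes, at 1365 CPM summed against 800 CPM. Irf1, which lies on both pathways, stood at 108 CPM against 4.75 CPM.

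Some other members were also higher when the counts of those 66 cells were pooled, most of them in a minority of the cells. Cxcl16 was at 178 CPM against 46.9 CPM in the comparison cells, with a UMI in 52 of the 66 cells. Icam1 was at 42.8 against 3.17 CPM, with a UMI in 25 cells, and Vcam1 at 120 against 2.52 CPM, with a UMI in 16 cells. Cxcl1 was at 16.04 against 0.393 CPM on 24 UMIs in 6 cells. Ccl5, another T cell chemokine, was at 221 against 0.498 CPM, and its UMIs lay in 9 of the 66 cells. It was 1 of 8 genes that were higher among 26 other chemokine ligands, of which 12 were lower. Cx3cl1 hardly differed, at 14.7 against 13.4 CPM, Cxcl12 was lower at 4.01 against 9.77 CPM, and Ccl2, Icam2 and Sele had no UMI in these cells. The cells were chosen by their Cxcl10 count, had more UMIs (median 21176.5 against 12292) and are not replicates, so no test was made.

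**Figure D4:**
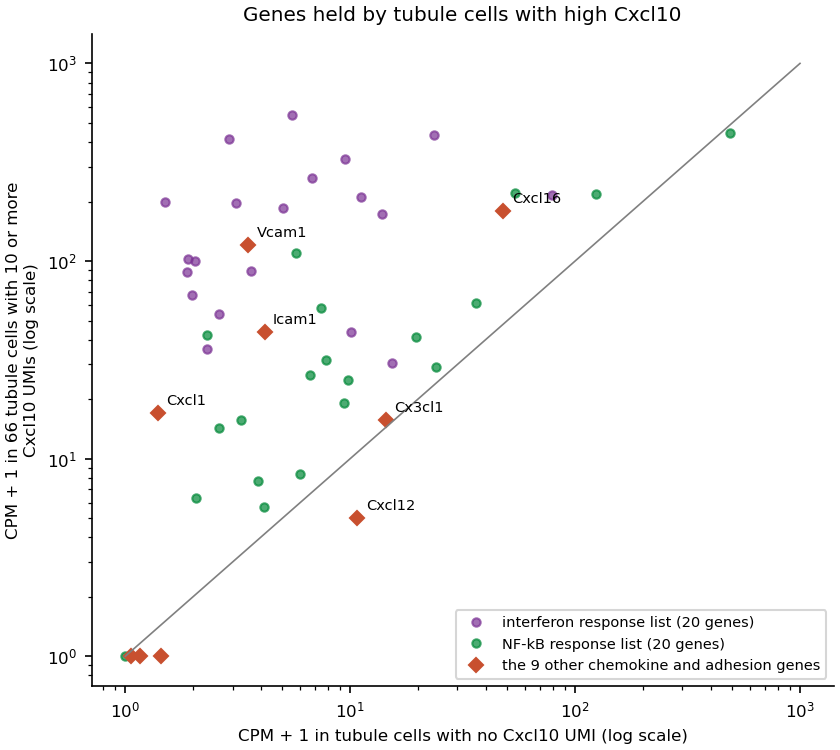
Pooled level (CPM + 1, log axes) in the 66 tubule cells with at least 10 Cxcl10 UMIs against that in 17982 tubule cells without a Cxcl10 UMI, for the interferon list, the NF-kB list and the other 9 chemokine and adhesion genes, with a line at equal levels. All interferon genes, Icam1, Vcam1, Cxcl1 and Cxcl16 lie above the line, and Cx3cl1 lies on it.

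**Figure D5:**
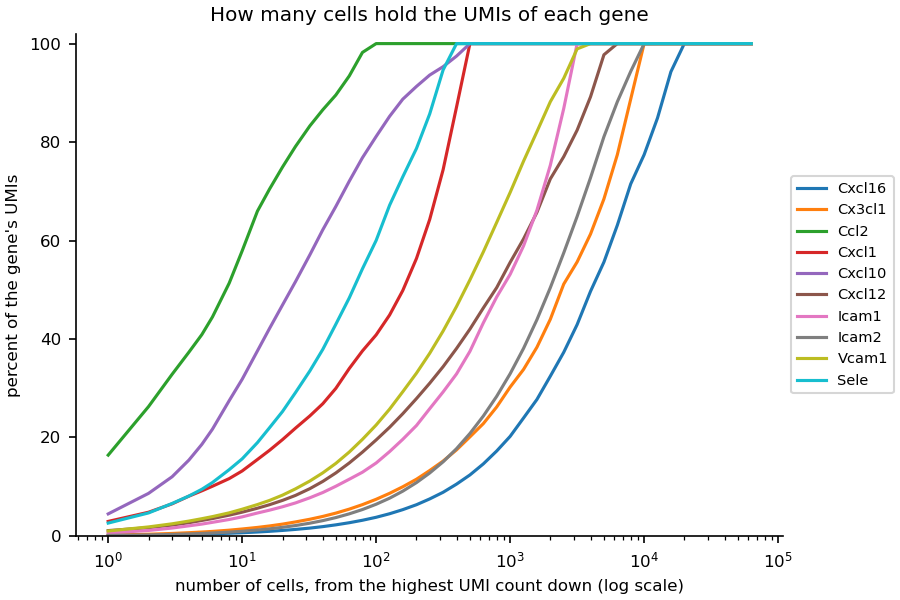
Share of each gene's UMIs (percent) held by its richest cells, against the number of cells counted from the richest down (log axis). Ccl2 and Cxcl10 reach 57.9% and 31.8% within 10 cells, while Cxcl16 and Icam2 are at 0.649% and 0.951% there.

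The regions just before the transcription starts of Cxcl10, Cxcl1 and Icam1 are shown because they share a motif of NF-kB sites. They are the 250 bases upstream of the start as RefSeq places it on GRCm38.p6, which held 6 of the 10 members, and capitals mark matches to the motifs searched on both strands. The motifs were GGAATTTCC and 2 longer patterns of NF-kB sites, GGG and TTTCC or GGG and TTCCC with 2 free bases between them, and the core of an interferon response element, GAAA and GAAA with 2 free bases between them.
Cxcl10 (chr5:92348890-92349139, minus strand): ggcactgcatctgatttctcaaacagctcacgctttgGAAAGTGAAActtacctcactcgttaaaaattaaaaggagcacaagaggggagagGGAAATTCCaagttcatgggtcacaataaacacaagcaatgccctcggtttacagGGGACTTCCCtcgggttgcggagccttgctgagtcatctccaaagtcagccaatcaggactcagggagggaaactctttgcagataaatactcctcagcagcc
Cxcl1 (chr5:90890995-90891244, plus strand): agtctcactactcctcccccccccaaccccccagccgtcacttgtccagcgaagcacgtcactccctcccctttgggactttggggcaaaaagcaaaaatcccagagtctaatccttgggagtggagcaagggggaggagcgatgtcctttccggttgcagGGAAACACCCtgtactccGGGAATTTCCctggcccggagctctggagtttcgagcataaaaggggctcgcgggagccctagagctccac
Icam1 (chr9:21015690-21015939, plus strand): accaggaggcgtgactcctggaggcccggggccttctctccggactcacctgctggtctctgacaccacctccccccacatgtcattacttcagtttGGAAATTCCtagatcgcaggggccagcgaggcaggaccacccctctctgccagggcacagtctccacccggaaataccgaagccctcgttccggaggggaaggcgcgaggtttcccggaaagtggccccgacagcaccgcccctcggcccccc
GGAATTTCC was found in 3 of the 6 windows of members, and those 3 were printed for that reason. It lay on the given strand in Cxcl1 and on the other in Cxcl10 and Icam1. Of 27025 RefSeq promoter windows of the same length 0.292% held it. The GGG and TTCCC pattern was found in Cxcl10 (1.44% of windows), and that of GGG and TTTCC matched at 2 places in Cxcl1 (1.4% of windows), 1 of them overlapping GGAATTTCC. The interferon element was found in Cxcl10 alone of the 6 members (3.04% of windows), and 0.104% of windows held both it and an NF-kB match. These matches describe letters in a window and not bound sites. The windows of Cx3cl1, Cxcl12 and Sele held none of these letters.

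Cxcl12 (ENSMUSG00000061353, chr6:117168535-117181367, plus strand) is the ligand of Cxcr4 and is scavenged by Ackr3. It guides vessels and retains leukocytes. Its level was 380 ± 146 CPM in aEC, 255 ± 127 in Slc14a1-EC, 110 ± 32.4 in Podo and 21.9 ± 9.03 in aLOH, and the first pair differed by less than the SD of aEC. PT held 29.1% of its UMIs at only 18.4 ± 5.88 CPM, and dLOH, SMC-renin and Mesan were at 19.3, 16.1 and 15.0 CPM. In aEC it stood at 219, 244, 575 and 392 CPM in DN and 249, 374, 269 and 424 CPM in control libraries at 6 weeks. At 12 weeks the libraries with at least 10 aEC cells were at 577, 427 and 686 CPM in DN and 358, 249 and 277 CPM in control mice, without overlap.

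With all libraries no class passed for Cxcl12 by edgeR with the low-count filter and without the block, while DESeq2 and the fit without the low-count filter called it lower in dLOH on average over both ages. In dLOH it was at 8.33, 3.60, 15.1 and 13.2 CPM in DN and 22.0, 3.01, 40.2 and 24.0 CPM in control libraries at 6 weeks. At 12 weeks it was at 8.71, 8.90, 12.5 and 13.0 CPM in DN and 23.1, 15.2, 60.4 and 37.5 CPM in control libraries, which did not overlap. In dLOH the log2 fold change was -1.35 ± 0.29 averaged over both ages (adjusted p = 0.0803, and 0.00107 with the block, where 1.09% of genes in dLOH passed). That class joined clusters with unequal Cxcl12. The larger one was at 2.92 CPM, 3.03 in control and 2.80 in DN mice. The smaller one was at 63.0 CPM, 93.5 in control and 28.6 in DN mice. These levels are pooled over libraries and without a test. With the block Cxcl12 was also lower in Slc14a1-EC (-0.59, adjusted p = 0.0381, lower in 7 of 8 pairs, 1.68% of genes) and aLOH (-0.47, adjusted p = 0.017), and higher in aEC (0.72, adjusted p = 0.0299, where 1.08% of genes passed). In Podo the genotypes were level, at 112.9 ± 16.6 CPM in control and 106.7 ± 45.9 CPM in DN libraries (log2 fold change -0.04 ± 0.18).

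Icam1 (ENSMUSG00000037405, chr9:21015985-21028817, plus strand) is the inducible ligand of the leukocyte integrins with the Itgb2 chain. It was highest in pvEC at 122 ± 47.4 CPM, followed by aEC (58.3 ± 20.6), Slc14a1-EC (54.2 ± 21.9), Imm (48.8 ± 27.5) and gEC (36.2 ± 15.2), which did not differ from their neighbours beyond their spread. In pvEC the values were 90.1, 135, 127 and 143 CPM in DN and 48.9, 70.9, 119 and 203 CPM in control libraries at 6 weeks. At 12 weeks the libraries with at least 10 cells were at 160, 174 and 153 CPM in DN and at 48.3 and 109 CPM in control mice, too few for the test. In gEC the log2 fold change was 0.42 ± 0.26 and did not pass.

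In PT Icam1 was low, but the DN library was higher in 8 of 8 pairs, a count for which the share of all PT genes is not given. At 6 weeks it stood at 5.74, 11.7, 10.1 and 8.50 CPM in DN and 2.65, 3.46, 7.46 and 4.96 CPM in control libraries, and at 12 weeks at 7.24, 11.7, 6.90 and 9.17 CPM and 2.90, 5.31, 5.11 and 6.15 CPM. The genotypes overlapped at 6 weeks and did not at 12 weeks. The log2 fold change was 0.81 ± 0.20 averaged over both ages and did not pass (adjusted p = 0.0579). With the block it was 0.78 and passed (adjusted p = 0.0112, where 8.72% of genes in PT passed), but not in the largest PT cluster alone (0.47, adjusted p = 0.655). Without the block DESeq2 called it averaged over both ages, as did edgeR without the low-count filter (0.83, adjusted p = 0.00225). PT joined clusters with unequal Icam1. The largest was at 4.96 CPM with 2574 control and 2376 DN kept cells. Another was at 12.6 CPM with 1795 control and 2952 DN kept cells. Pooled over libraries and without a test, control and DN mice were at 3.56 and 5.63 CPM in the first and 8.75 and 14.7 CPM in the second.

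Icam2 (ENSMUSG00000001029, chr11:106377656-106388075, minus strand) is an endothelial surface protein that is present without inflammation. It had 36582 UMIs, 59.4% of them in gEC. Its level was 789 ± 95.9 CPM in gEC, 697 ± 127 in aEC, 643 ± 125 in pvEC and 469 ± 59.3 in Slc14a1-EC, and each neighbour in this order down to pvEC was within 1 SD of the next. Mitotic and Imm were at 45.2 and 33.3 CPM. In gEC it was at 867, 585, 943 and 687 CPM in DN and 922, 862, 726 and 723 CPM in control libraries at 6 weeks, and at 875, 754, 825 and 845 CPM and 815, 723, 729 and 737 CPM at 12 weeks. The genotypes overlapped at both ages (log2 fold change 0.02 ± 0.14 averaged over both ages).

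Mesan was the only class outside the endothelium above 100 CPM of Icam2, at 146 ± 61.5 CPM, and there it was lower in DN. At 6 weeks it stood at 72.6, 64.9, 174 and 79.7 CPM in DN and 255, 120, 173 and 132 CPM in control libraries, so DN male replicate 1 lay among the control values. At 12 weeks it stood at 133, 88.2, 103 and 89.9 CPM in DN and 230, 198, 202 and 215 CPM in control libraries, with no overlap. Icam2 had a log2 fold change of -0.87 ± 0.21 averaged over both ages (adjusted p = 0.0248, lower in 7 of 8 pairs), -0.99 ± 0.30 at 12 weeks (adjusted p = 0.0968, and 0.000197 with the block, where 11.4% of genes in Mesan passed) and -0.75 ± 0.31 at 6 weeks (adjusted p = 0.581). The averaged call was lost in 7 of 16 fits that left out 1 library (adjusted p up to 0.0658, without DN female 6 weeks replicate 2, log2 fold change -0.78). The libraries whose loss ended it also included DN male 6 weeks replicate 2, DN female and male 12 weeks replicate 2, both control male 12 weeks libraries and control male 6 weeks replicate 1. Of the endothelial lists in Mesan given for Cx3cl1, the medians of the gEC markers were 1357 CPM in control and 1238 CPM in DN libraries and those of the pan-endothelial markers 485 and 621 CPM, and their part in the result was not tested. Without the mesangial-like cells that had a UMI of Pecam1 or Cdh5 the averaged log2 fold change was -0.88 (adjusted p = 0.0256). The summed level of the dissociation stress list in Mesan, given for Cx3cl1, applies here too.

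Vcam1 (ENSMUSG00000027962, chr3:116109949-116129688, minus strand) binds the integrin of Itga4 and Itgb1. It was highest in aEC at 420 ± 249 CPM, followed by Mesan at 194 ± 86.6 CPM and Slc14a1-EC at 116 ± 48.6 CPM. The means of aEC and Mesan differed by less than the SD of aEC, but at 6 weeks aEC was above Mesan in every library. Mesan held 44.3% of its UMIs. Lower levels were counted in pvEC (58.4 CPM), Imm (44.6) and Mitotic (22.2). In aEC it was at 127, 441, 574 and 299 CPM in DN and 265, 1161, 340 and 321 CPM in control libraries at 6 weeks, and control female replicate 2 was far above all others. At 12 weeks the libraries with enough aEC cells were at 293, 247 and 362 CPM in DN and 603, 358 and 488 CPM in control mice. In Mesan it was at 57.4, 76.4, 261 and 150 CPM in DN and 74.2, 97.6, 211 and 295 CPM in control libraries at 6 weeks, and at 159, 277, 204 and 165 CPM and 258, 280, 331 and 204 CPM at 12 weeks. The genotypes overlapped, and no class passed for Vcam1 (in Mesan log2 fold change -0.32 ± 0.16, adjusted p = 0.391). Macrophage-like immune cells held Vcam1 at 149 CPM (122 to 179), while none was counted in the Chil3-led immune cluster.

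Sele (ENSMUSG00000026582, chr1:164048234-164057677, plus strand) encodes E-selectin, an endothelial protein made after activation. Of its 728 UMIs 87.5% were in gEC, at 25.7 ± 26.9 CPM. A UMI of Sele was found in 4.93% of gEC, against 0.0461% of PT cells, which should lack it, at median depths of 3469 and 8490.5 UMIs. At 6 weeks gEC had 2.19, 11.9, 16.9 and 32.4 CPM in DN and 0.729, 55.6, 9.47 and 6.86 CPM in control libraries. At 12 weeks they had 10.4, 91.9, 62.9 and 38.1 CPM in DN and 0, 49.5, 5.49 and 16.2 CPM in control libraries. The genotypes overlapped, and the libraries of the small kit batch were the lowest of each group. The log2 fold change of 1.11 ± 0.71 averaged over both ages did not pass. With the block, which compares libraries of the same batch, it was 1.31 (adjusted p = 0.0343, where 5.3% of genes in gEC passed) and 2.69 at 12 weeks (adjusted p = 0.00537), and 7 of 8 pairs were higher in DN.

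No call was made for age. From 6 to 12 weeks 0 of 65 pairs passed in control mice and 0 in DN mice by edgeR, where 0% of all pairs passed in either, with 10 and 4 pairs at an unadjusted p under 0.05. The DN effect differed between the ages in 0 pairs (0% of all pairs), with 2 at an unadjusted p under 0.05. Cxcl16 in gEC had an effect at 12 weeks that differed by -0.18 ± 0.27 on the log2 scale from that at 6 weeks, and Cx3cl1 in Mesan by 0.10 ± 0.29.

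The receptors of the members sat mostly on immune cells. Ccr2 was at 454 ± 177 CPM in Imm with 98.4% of its UMIs there, Cx3cr1 at 269 ± 116 CPM with 96.0%, and Cxcr3 at 20.0 ± 17.1 CPM with 98.8%. Cxcr6 stood at 38.3 ± 47.4 CPM in Imm, which held 81.1% of its UMIs, and Selplg, the main ligand of selectins on leukocytes, at 219 ± 92.8 CPM with 98.3%. Among the exceptions was Itga4, highest in Mesan at 380 ± 132 CPM with 62.3% of its UMIs, the class that also held the largest share of Vcam1 UMIs. Cxcr4 was highest in Imm at 58.3 ± 24.2 CPM, but Imm held 4.81% of its UMIs and IC-B 54.1%. The scavenger Ackr3 was highest in dLOH at 179 ± 77.5 CPM, while PC held 43.0% of its UMIs. Of the chemokine receptor list 11 of 21 genes were tested in 31 pairs and 9.68% of these were called, where 1.02% of all pairs were, and Ackr3 was the gene called, higher in DN in Mesan (2.05 ± 0.40, adjusted p = 0.00439) and SMC-renin (1.13 ± 0.22, adjusted p = 0.0166) and lower in IC-A (-1.34 ± 0.21, adjusted p = 0.00258). Of 11 leukocyte counter-receptors 10 were tested in 44 pairs and 0 were called by edgeR, with 3 pairs at an unadjusted p under 0.05.

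Other genes of the pathway were read from lists, averaged over both ages, as pairs of a gene and a class, beside the 1.02% of all such pairs that passed (in Mesan 4.51% and in CNT 1.41% of genes). The lists were chosen with earlier results of these data known, so these shares are a description and no test of a list. Of the other chemokine ligands 12 of 27 were tested in 31 pairs, 6.45% were called, and Ccl17 was higher in Mesan (1.33 ± 0.33, adjusted p = 0.0256) and Ccl28 lower in PT (-2.49 ± 0.59, adjusted p = 0.0414). Of the other endothelial adhesion molecules 13 of 15 were tested in 117 pairs and 4 pairs (3.42%) were called, all higher. They were Alcam, a ligand of CD6 on T cells, in Mesan, CNT and PC (1.20 ± 0.21, 1.18 ± 0.18 and 1.09 ± 0.23) and the sialomucin Emcn in Mesan (0.74 ± 0.18). At 12 weeks Podxl, another sialomucin, was lower in Mesan (-2.31, adjusted p = 0.0197). The study sorted mesangial cells as negative for PODXL protein, so RNA of other glomerular cells may be counted here. Podocyte-like cells in the tested libraries numbered 252 in DN and 913 in control mice. The part of other cells in the Podxl result was not tested. In Mesan the gelatinase Mmp2 was higher (0.85 ± 0.13, adjusted p = 0.000756), while Dpp4, a peptidase that trims Cxcl10 and Cxcl12, was lower in IC-A (-1.29 ± 0.26, adjusted p = 0.0119), the calls among 71 pairs (2.82%) of the 6 proteases tested of 8.

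Of the NF-kB list 19 of 20 genes were tested in 211 pairs, with 10 pairs higher and 1 lower in DN (5.21%, against 1.02% of all pairs) and a median log2 fold change of 0.09. In CNT, where Cxcl16 was higher, Cebpd, Ier3 and Relb were higher by 2.16 ± 0.40, 1.68 ± 0.30 and 1.53 ± 0.31. In Mesan Csf1, a growth factor of macrophages, was higher by 0.87 ± 0.23 (adjusted p = 0.0391) and Tnfaip2 by 0.91 ± 0.23 (adjusted p = 0.0306). Of the interferon list all 20 genes were tested in 237 pairs and 0.844% were called, close to the 1.02% of all pairs. The 2 calls were Ifit2, higher in CNT (1.48 ± 0.35), and Usp18, lower in PT (-1.90 ± 0.41), and the median was -0.10. Of the tubule injury list 9 of 10 genes were tested in 95 pairs with 11 higher and 1 lower (12.6%) and a median of 0.42, among them Lcn2, Krt18 and Krt8 in CNT (1.57 ± 0.34, 1.20 ± 0.16 and 1.08 ± 0.16). Of the dissociation stress list all 20 genes were tested in 306 pairs with 9 higher and 1 lower (3.27%), among them the immediate early genes Egr1, Fos and Junb in Mesan (1.84 ± 0.41, 1.74 ± 0.39 and 1.14 ± 0.30). The median over all gene and class pairs was -0.0015.

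For each member with a class mean of at least 20 CPM, the genes whose levels over the 17 classes were most like it were read from 10902 genes, by Pearson's r on log2(CPM + 1), as a description over classes of shared libraries. Cxcl16 was most like Zmynd15 (r = 0.779), a gene that overlaps it on the other strand, and Dera (0.771), lower than the best match of the others except Cxcl10 (Pnpla7, 0.666). Icam2 was most like Arap3 and Arhgap31 (0.988 for both) and Flt1 (0.983), Sele like Bmper (0.98) and Gata5 (0.939), and Vcam1 like Rnf144a (0.907). Cx3cl1 was most like Men1 (0.926), Cxcl12 like Tmod2 (0.865), Icam1 like Irf7 (0.957) and Ccl2 like Cd180 (0.979). Of these, Bmper was itself called in gEC (1.31 ± 0.26, adjusted p = 0.0485). Ccl2, Cxcl10, Icam1 and Vcam1 also overlap genes on the other strand (Gm17268, Art3, Gm47079 and Gm43109), and whether the counting used strand was not stated.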

How the data were processed

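Single-cell RNA-seq libraries of 16 mice were read as raw UMI counts per gene and barcode, deposited as one filtered matrix per library. The submitters' processing notes name Cell Ranger 3.0.2 and mm10. The authors did not pool libraries in these count files, and the lowest count of a barcode was 500 UMIs. Whether counting used strand is not given in the sources used here.

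A barcode stayed in if it had 200 to 7000 genes and no more than 50% mitochondrial counts (94436 of 116439). Cells were log-normalised, reduced to 30 principal components on 2000 variable genes (the 10 genes and all lists left out), integrated over libraries with Harmony and clustered by Leiden at resolution 1.0. Of 47 clusters 32 were named from markers, by thresholds set after the clusters were seen, and 15 stayed unnamed. The immune clusters were clustered again, and subclusters with a marker of another class among their leading genes were also set as unnamed. That rule too was set after the clusters were seen. Cells left unnamed in either way numbered 17284 (18.3%, and 3.83% to 45.0% of a library). The highest share was in control male 6 weeks replicate 2, a library of the larger kit batch. Its median of 698 UMIs per barcode was the lowest of all libraries, where the highest was 10787. It also supplied 97.7% of the cells of 1 PT cluster, which held 442 control and 6 DN kept cells. This library is among the controls of the 6-week contrasts. No doublet caller was run. Instead 7492 cells with a UMI of another lineage's marker and nontubular cells over 20% mitochondrial counts were removed, which left 68660. Coordinates are from GRCm38.

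Counts were summed per library and class with at least 10 cells and tested with edgeR 4.0.16 (TMM, filterByExpr, quasi-likelihood) where each genotype had at least 3 libraries, which left 65 of 160 pairs of a member and a class tested in both ages and 68 of 170 at 6 weeks. The model held genotype within age and sex within age, and p-values were adjusted over all genes of a class and contrast. The SE of a log2 fold change was calculated back from the test, as its size divided by the square root of the F statistic, and is approximate. R 4.3.3 was used. On data simulated for Mesan at 6 weeks (9720 genes), 49.5% of genes changed 2-fold and 95.2% of genes changed 4-fold were called, and 13 unchanged genes were called too. The simulated libraries were independent, without the pairing described next, so these shares are not the power of the real contrast. Same-numbered DN and control libraries of one sex and age deviated together (r = 0.329 to 0.837 over PT, PC, Mesan and gEC), so the number was also fitted as a block. The classes share the same libraries, so these values are not independent of one another. What the number stands for is not stated, and in females it also marks the kit batch. In males r was 0.329 to 0.594, on few libraries, so whether male libraries were paired is not known. No 2 replicates agreed within sampling noise.

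The members and lists were chosen with earlier results of these data known. Members were named in each class where they reached 10 CPM or were called, list genes where called (up to 3 per class), and similar genes as the 3 highest correlations. Alternatives covered DESeq2 1.42.0, the low-count filter, cell filters, clustering resolution, kit batch, the replicate block and leaving out each library, and, added after the data were seen, mesangial-like cells without endothelial markers and the largest cluster of each class.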

Additional observations from a re-analysis of the deposited data

Results flagged for a closer look

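The 46 groups of 4 libraries, each a gene in its highest or a called class, were read for a library far from the other 3 by Dixon's criterion, which chance meets in about 1 of 20 groups of continuous values. It was met in 4 of the 44 groups with at least 2 libraries above 0. The other 2 groups had 0 in 3 libraries, where any single UMI meets the criterion, so the chance rate does not apply to them. In these, Cxcl10 in pvEC was at 885 CPM in control male 6 weeks replicate 2 and at 6.77 CPM in DN female 6 weeks replicate 2, with 0 in the other 3 libraries of both groups. Icam2 in Mesan was at 174 CPM in DN male 6 weeks replicate 1, against 64.9 to 79.7 CPM in the others. Icam2 in gEC was at 815 CPM in control female 12 weeks replicate 1, against 723 to 737 CPM. Sele in gEC was at 55.6 CPM in control female 6 weeks replicate 2, against 0.729 to 9.47 CPM. In the same library Vcam1 in aEC was at 1161 CPM, against 264.6 to 339.6 CPM.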

How the results depend on the processing

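Numbers below count pairs of a member and a class that passed, Cxcl16 in gEC included. With the replicate block 5.53% of all gene and class pairs passed averaged over both ages, against 1.02% without it. Shares for most other settings are not given here, so a higher count is not read as a result about these genes. At 6 weeks (1 pair) the count was 2 with DESeq2, 3 with kit batch as a term, 6 without the low-count filter, 0 without removal of cells with another lineage's marker and 6 with the replicate block. At 12 weeks (2 pairs) it was 1 at no more than 20% mitochondrial counts, 4 with DESeq2, 7 with kit batch as a term, 13 without the low-count filter and 13 with the replicate block. Averaged over both ages (4 pairs) it was 7 with kit batch as a term, 14 without the low-count filter, 7 without removal of cells with another lineage's marker and 20 with the replicate block. DESeq2 called 5 pairs besides Cxcl16 in gEC there, Cxcl12 in dLOH and Icam1 in PT among them. The difference of the DN effect between ages (0 pairs) gave 2 without the low-count filter and 1 with the replicate block, and age in control mice and in DN mice (0 pairs each) gave 4 and 5 without the low-count filter. Among the pairs called without that filter were pairs that it removes, such as Ccl2 in Mesan. The largest cluster of each class alone with the replicate block, added after the data were seen, gave 6, 10 and 16 pairs at 6 weeks, at 12 weeks and averaged, and without the block 1, 2 and 4. Leaving out 1 library gave 0 to 2 pairs at 6 weeks, 0 to 3 at 12 weeks and 3 to 6 averaged over both ages; the cause was not tested. The libraries whose loss lowered the 12-week count were control female 12 weeks replicate 2, both control male 12 weeks libraries (1 pair each) and DN female 12 weeks replicate 2 (0 pairs), and it rose to 3 without control female 6 weeks replicate 1 or DN male 6 weeks replicate 1, when Icam2 in Mesan was also called. Averaged over both ages, Cxcl10 in aLOH, Cxcl12 in dLOH and Icam1 in PT were each called when either of 2 libraries was left out (DN female replicate 1 of either age; DN female 6 weeks replicate 1 or control female 6 weeks replicate 2; DN male 6 weeks replicate 2 or control male 6 weeks replicate 1). Cxcl16 in gEC at 6 weeks was not called without removal of cells with another lineage's marker (1.18, adjusted p = 0.0613 by edgeR), and Cxcl16 in CNT at 12 weeks not in the larger kit batch alone (1.48, adjusted p = 0.078). No call reversed. The class with the highest level was the same for 8 to 10 of 10 genes under other cell filters and resolutions.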

Other observations

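A cluster of 359 cells led by Isg15, Ifit1, Ifi44 and Iigp1, interferon-induced genes, matched no class and entered no comparison. In control male 12 weeks replicate 1 its 85 cells held 200 Cxcl10 UMIs (145 CPM), all in 5 cells and 161 of them in 1, while in the other libraries Cxcl10 there was at 0 to 8.04 CPM.

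Among immune cells, a cluster led by Cd209a, Xcr1 and Clec10a (91 cells) held 181 Cxcl10 UMIs in 5 cells, and 159 of them were in 1 cell of control male 12 weeks replicate 1, so that the pooled level of 246 CPM describes that cell. Its Cxcl16 was spread over 33 cells, at 133 CPM (95% Poisson interval 108 to 163, counting error only), 202 CPM in control and 90.5 CPM in DN mice, pooled over libraries and so without a test. A cluster led by the B cell genes Cd79a and Ms4a1 (57 cells) held Icam2 at 77.2 CPM (44.1 to 125).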
